A study of Mus musculus with 2 samples.

Results

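The genes described here encode the nuclear subunits of the mitochondrial respiratory chain (complexes I to IV) and of ATP synthase (complex V). Members were all genes of the platform annotation whose symbol starts with Ndufa, Ndufb, Ndufc, Ndufs, Ndufv, Uqcr, Cox4, Cox5, Cox6, Cox7, Cox8 or Atp5, together with Sdha, Sdhb, Sdhc, Sdhd and Cyc1, read through probe sets assigned to exactly 1 gene. This gave 91 of 18194 genes, read by 180 probe sets. By role, 81 of the 91 are subunits, 8 are complex I assembly factors (Ndufaf1 to Ndufaf8), which help build the complex without staying in it, and 2 are relatives of complex IV subunits (Cox7a2l and Ndufa4l2).

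The skin tumours of both genotypes were raised with DMBA, a mutagenic hydrocarbon (given at postnatal days 23, 25 and 27 and again at 7 weeks of age), and TPA, a phorbol ester that promotes tumour growth. Living tumour epithelial cells positive for CD34 were sorted from wild-type and from K14CreER:Rosa-VEGF-164 animals, in which a keratin 14 promoter drives an inducible Cre recombinase and a VEGF-164 transgene sits at the Rosa locus. The number of tumours and animals behind each array, and how Cre was induced, were not stated in the labels. Each genotype was read on 1 Affymetrix whole-genome mouse array, so every value is a single measurement, no test between genotypes exists and no p-value is given.

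Complex I (NADH dehydrogenase) and complex II (succinate dehydrogenase) pass electrons to ubiquinone, complex III (cytochrome bc1) hands them to cytochrome c, and complex IV (cytochrome c oxidase) passes them to oxygen. Complexes I, III and IV pump protons across the inner membrane, and complex V uses the returning protons to make ATP. A few core subunits are encoded in the mitochondrial genome and the rest in the nucleus, so that assembly needs balanced output of many nuclear genes. Keratinocytes are known for strong glycolysis, and HIF-1, the transcription factor of the hypoxia response, is known to exchange some chain subunits for others.

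Promoter sequences are shown for Ndufa4 and Atp5md, the subunits furthest apart between the arrays among those with a promoter entry and a bright probe set, and for Cox6a1 and Sdhd, which were nearly equal and hold matches to motifs of 2 known activators of respiratory genes. Each is the 250 bases before the annotated start of transcription, from RefSeq (GRCm38.p6), 5′ to 3′ on the gene's own strand, which is the minus strand in all 4. Capitals mark matches on either strand to the NRF-1 motif, to CCGGAAG (ETS factors such as GABP), to a YY1 motif or to ACGTG (the core of hypoxia response elements).
Ndufa4, chr6:11907451-11907700: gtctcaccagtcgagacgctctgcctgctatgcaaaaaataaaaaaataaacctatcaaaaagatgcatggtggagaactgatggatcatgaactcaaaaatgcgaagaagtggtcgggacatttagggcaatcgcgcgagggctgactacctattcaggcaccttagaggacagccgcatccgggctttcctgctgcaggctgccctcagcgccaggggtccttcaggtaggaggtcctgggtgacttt
Atp5md, chr19:47090648-47090897: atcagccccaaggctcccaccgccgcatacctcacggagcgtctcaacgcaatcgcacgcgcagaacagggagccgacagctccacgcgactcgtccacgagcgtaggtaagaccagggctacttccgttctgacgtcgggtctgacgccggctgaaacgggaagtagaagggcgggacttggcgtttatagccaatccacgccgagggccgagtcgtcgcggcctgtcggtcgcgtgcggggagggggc
Cox6a1, chr5:115348959-115349208: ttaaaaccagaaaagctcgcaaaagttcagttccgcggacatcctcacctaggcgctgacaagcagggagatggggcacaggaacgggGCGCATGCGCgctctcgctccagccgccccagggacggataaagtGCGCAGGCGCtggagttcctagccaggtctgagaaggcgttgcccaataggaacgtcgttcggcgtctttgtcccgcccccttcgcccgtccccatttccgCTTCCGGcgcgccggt
Sdhd, chr9:50603850-50604099: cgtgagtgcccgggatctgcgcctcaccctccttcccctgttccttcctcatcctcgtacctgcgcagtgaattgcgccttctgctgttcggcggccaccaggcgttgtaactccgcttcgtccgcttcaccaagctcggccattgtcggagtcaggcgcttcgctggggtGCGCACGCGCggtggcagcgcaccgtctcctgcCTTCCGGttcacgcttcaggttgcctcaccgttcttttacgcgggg

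Over all 74 members with a promoter entry, the NRF-1 letters were found in 12 (16.2%), against 884 of 9817 (9.00%) promoters of genes with a ratio and 4.23% of all 27025 promoter genes. The ETS letters were in 14 members (18.9%, against 15.1% of genes with a ratio and 7.83% of all), the YY1 letters in 1 (1.35%, against 0.73% and 0.36%) and ACGTG in 16 (21.6%, against 25.0% and 18.5%). The palindrome CACGTG matches ACGTG on both strands, and a window was counted once for each motif. Complex V held 4 of the 12 NRF-1 matches and 6 of the ACGTG matches among its 15 subunits with an entry, and complex I held 4 and 5 among 31. The 10 measured subunits with the NRF-1 letters had a median log2 ratio of -0.02 and the 52 without them -0.06. The windows of Ndufa4 and Atp5md held none of these letters, which says nothing about other sequences or about the factors.

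Signals on the array are in arbitrary units, and the log2 ratio is always the VEGF array over the wild-type array. A signal counted as above background when it exceeded the 90th percentile of 80 probe sets for odorant and pheromone receptor genes, 19.9 for wild type and 11.3 for VEGF. A gene was read by its brightest probe set, and signals of different probe sets are not comparable as transcript levels. Of the 91 members, 86 were above background on both arrays and had a ratio; the other 5 were Ndufb4, Cox4i2, Cox7a1, Cox7b2 and Cox8b. The only error available was the disagreement of probe sets of the same gene, which gave a single probe set's log2 ratio an SD of 0.32 in the highest tertile of signal (1692 genes), 0.44 in the middle and 0.51 in the lowest. It was taken from the 2 brightest probe sets of each gene, and the tertile was that of their mean log2 signal, so the dimmer of the pair may lie in a lower tertile. For the 43 members whose pair mean lay in the highest tertile it was 0.28. It does not cover differences between animals, tumours, sorts or labelling reactions.

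All 6 basal keratinocyte markers were above background on both arrays (Krt14 at 8990 and 8571, wild type first). The antibody mix included CD45, CD31 and CD140a, the products of Ptprc, Pecam1 and Pdgfra, and all 3 genes were below background in wild type and above it in VEGF (14.4 and 17.3, 3.07 and 22.0, and 9.86 and 34.7). The VEGF signal of Ptprc is below the wild-type background of 19.9, so Ptprc has no fold. The 7 leukocyte markers summed to 239 and 280, with Cd3e and Cd3g below background on both arrays. The 6 fibroblast markers summed to 1119 and 2642, the 5 endothelial markers to 78.8 and 118, and the 4 platelet markers to 95.1 and 546, of which Ppbp made 480. The 6 skeletal muscle markers summed to 147 and 63.4, with 2 of 6 above background on each array. The 4 adipocyte markers found summed to 4760 and 1675, nearly all of it Fabp4 (4689 and 1649), while Ucp1 and Adipoq were below background. The 2 erythroid markers found were below background on both arrays. The part of these cells in the values below was not tested, and fewer cells of a type cannot be told apart from less RNA per cell.

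The chain as a whole was nearly level between the arrays. Of 76 subunits with a ratio, 68 (89.5%) lay within 0.5 of 0 on the log2 scale, against 62.1% of all 12195 genes with a ratio and 74.9% of the genes in the highest signal tertile, where 71 of the 76 lay. The median was -0.04, as it was for all genes (-0.04), while genes of the highest tertile had 0.05. At least 2-fold higher was 1 subunit, Ndufa4, and at least 2-fold lower were 2, Cox7c and Atp5md. The background of that rule was 3.87% higher and 8.54% lower over all genes, or 2.85% and 3.39% in the highest tertile. The 3 of 76 is below the 12.4% of all genes, a share that includes ratios against a floor, which no subunit had. Of the 71 bright subunits 1 was at least 2-fold higher and 1 lower, Cox7c being dim, against 6.25% of bright genes either way. Of all genes at least 2-fold apart, the higher ones made up 31.2%, but 51.1% after quantile and 52.8% after loess normalization. Below 0 lay 46 of the 76 subunits, against 52.9% of all genes and 44.5% of bright ones.

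**Figure D1:**
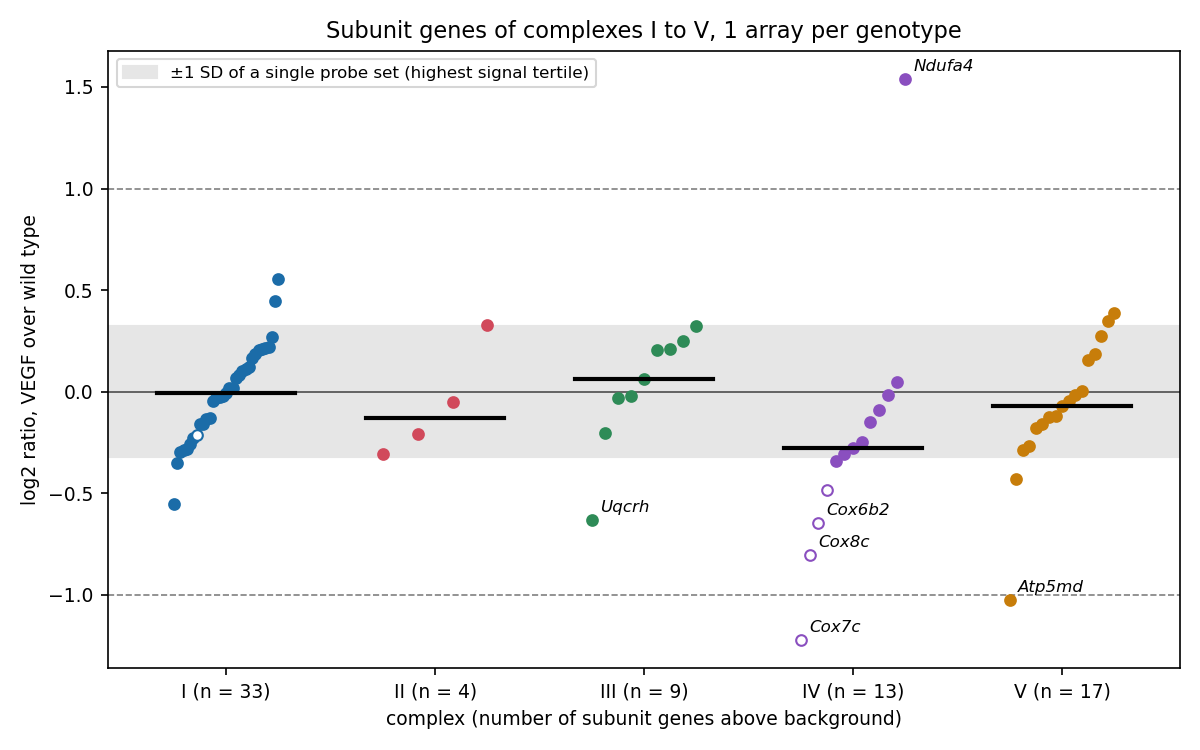
Log2 ratio (VEGF over wild type, vertical axis) of each subunit gene, by complex; filled points lie in the highest signal tertile, open points below it, black bars are medians, the grey band is ±0.32, the SD of a single probe set, and dashed lines mark 2-fold. Most points of every complex lie in or near the band, with Ndufa4 at 1.54 and Cox7c (-1.22) and Atp5md (-1.03) outside the 2-fold lines.

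Set side by side, the medians of the 5 complexes lay between -0.28 and 0.06. Complex I had a median of -0.01 over 33 measured subunits, complex II -0.13 over 4, complex III 0.06 over 9, complex IV -0.28 over 13 and complex V -0.07 over 17. The widest gap was 0.34, between complexes III and IV, and with 1 array per genotype it has no error and no test. Over the 9 complex IV members in the highest tertile the median was -0.15. The spread within complex I (SD 0.24) was smaller than the probe set SD of 0.32, and that of complex III was 0.29, of complex V 0.33 and of complex IV 0.64. Under the other settings tried, the median of complex IV stayed between -0.29 and -0.07 and that of complex V between -0.07 and 0.00, while those of complexes I, II and III took both signs. With medians matched by a factor before an offset, a setting added later that moved bright genes up together, complex IV was at 0.13.

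In complex I, where 0 of 33 subunits were 2-fold apart, against 6.25% of bright genes, the outer values were Ndufa9 and Ndufv3. Ndufa9, a matrix-arm subunit near the ubiquinone site, had a signal of 805 on the wild-type and 1181 on the VEGF array, a log2 ratio of 0.55. Ndufv3, a small accessory subunit of the NADH-binding module, had 1361 and 928, a log2 ratio of -0.55. Both are read by 1 probe set, so neither has a check within the array.

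The next highest were Ndufs4, an accessory subunit of the NADH-binding module whose loss causes Leigh-like disease in mice, and Ndufs3, a core subunit. Ndufs4 had 431 and 588 (0.45), but its other 3 probe sets above background, all dimmer, gave between -0.57 and 0.06. Ndufs3 had 731 and 880 (0.27). The direction of Ndufs4 therefore depends on the probe set chosen.

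The next lowest were 2 subunits of the membrane arm, which holds the proton pumps. Ndufa3 had 2222 and 1744 (-0.35), with its other probe sets at -0.50 and -0.38. Ndufb11, an X-linked subunit, had 2281 and 1854 (-0.30), with others between -0.21 and 0.05. Ndufc2, another membrane-arm subunit, had 3228 and 2889 (-0.16), with other probe sets up to 0.11.

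Between the arms, the 14 measured subunits of the matrix arm, which oxidises NADH and carries the iron-sulphur clusters, lay at a median of 0.09, and 10 of them were above 0. For the membrane arm the median over 18 was -0.04, and 5 were above 0. Of all genes in the highest tertile, 2255 of 4065 were above 0. In the matrix arm the core subunits Ndufv1 (0.18), Ndufs1 (0.21), Ndufs8 (0.08) and Ndufv2 (0.02) were slightly above 0, and Ndufs7 was at -0.23. Other probe sets went the other way for Ndufv2 (-0.39 and -0.30) and Ndufs7 (0.07), and those of Ndufs8 ran from -0.21 to 0.68. The difference between the arms was not tested. Ndufab1, the acyl carrier protein bound to both arms, had 1401 and 1515 (0.11).

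The complex I assembly factors centred on 0.22 (median). Of the 8, 5 were above 0, against 5747 of all 12195 genes, and none was 2-fold apart, against 12.4% of all genes. Ndufaf4 had 325 and 491 (0.60; its other probe set gave 0.11), and Ndufaf1 had 111 and 160 (0.53). Ndufaf7 (0.26), Ndufaf3 (0.26) and Ndufaf2 (0.19) were also above 0. Ndufaf8 (-0.12), Ndufaf5 (-0.15) and Ndufaf6 (-0.30) were below it.

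Complex II, which also works in the citric acid cycle, had no subunit 2-fold apart, against 6.25% of bright genes. With 4 subunits this count says little. Sdhb, the iron-sulphur subunit, had 930 and 1169 (0.33), while Sdha, the flavoprotein, had 607 and 491 (-0.30), with its other probe set at 0.44. The membrane anchors were Sdhc, with 500 and 432 (-0.21, other probe set 0.27), and Sdhd, with 521 and 504 (-0.05, other probe set -0.37). For Sdha and Sdhc the probe sets gave opposite signs, so no direction can be read for them.

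In complex III 0 of 9 subunits were 2-fold apart, against 6.25% of bright genes, so this count says little. The genes of both redox subunits and of 1 core protein were above 0. Uqcrc1, a core protein, had 2021 and 2534 (0.33), Uqcrfs1, the Rieske iron-sulphur protein, 949 and 1128 (0.25), and Cyc1, the cytochrome c1 gene, 1181 and 1235 (0.06). The other core protein gene, Uqcrc2, had 2306 and 2261 (-0.03, other probe set 0.24). The lowest was Uqcrh, the hinge protein that contacts cytochrome c, with 2836 and 1833 (-0.63), and its second probe set gave -0.63 as well. Uqcrb, which binds ubiquinone in the complex, had 7639 and 6625 (-0.21; other probe set -0.29).

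Uqcr10, a small accessory subunit of complex III, showed the widest disagreement among members. Its brightest probe set had 836 and 966 (0.21). The other 2 were dimmer, with 168 and 70.8 (-1.24) and with 94.1 and 12.2 (-2.95). The median over its probe sets would make it at least 2-fold lower.

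**Figure D2:**
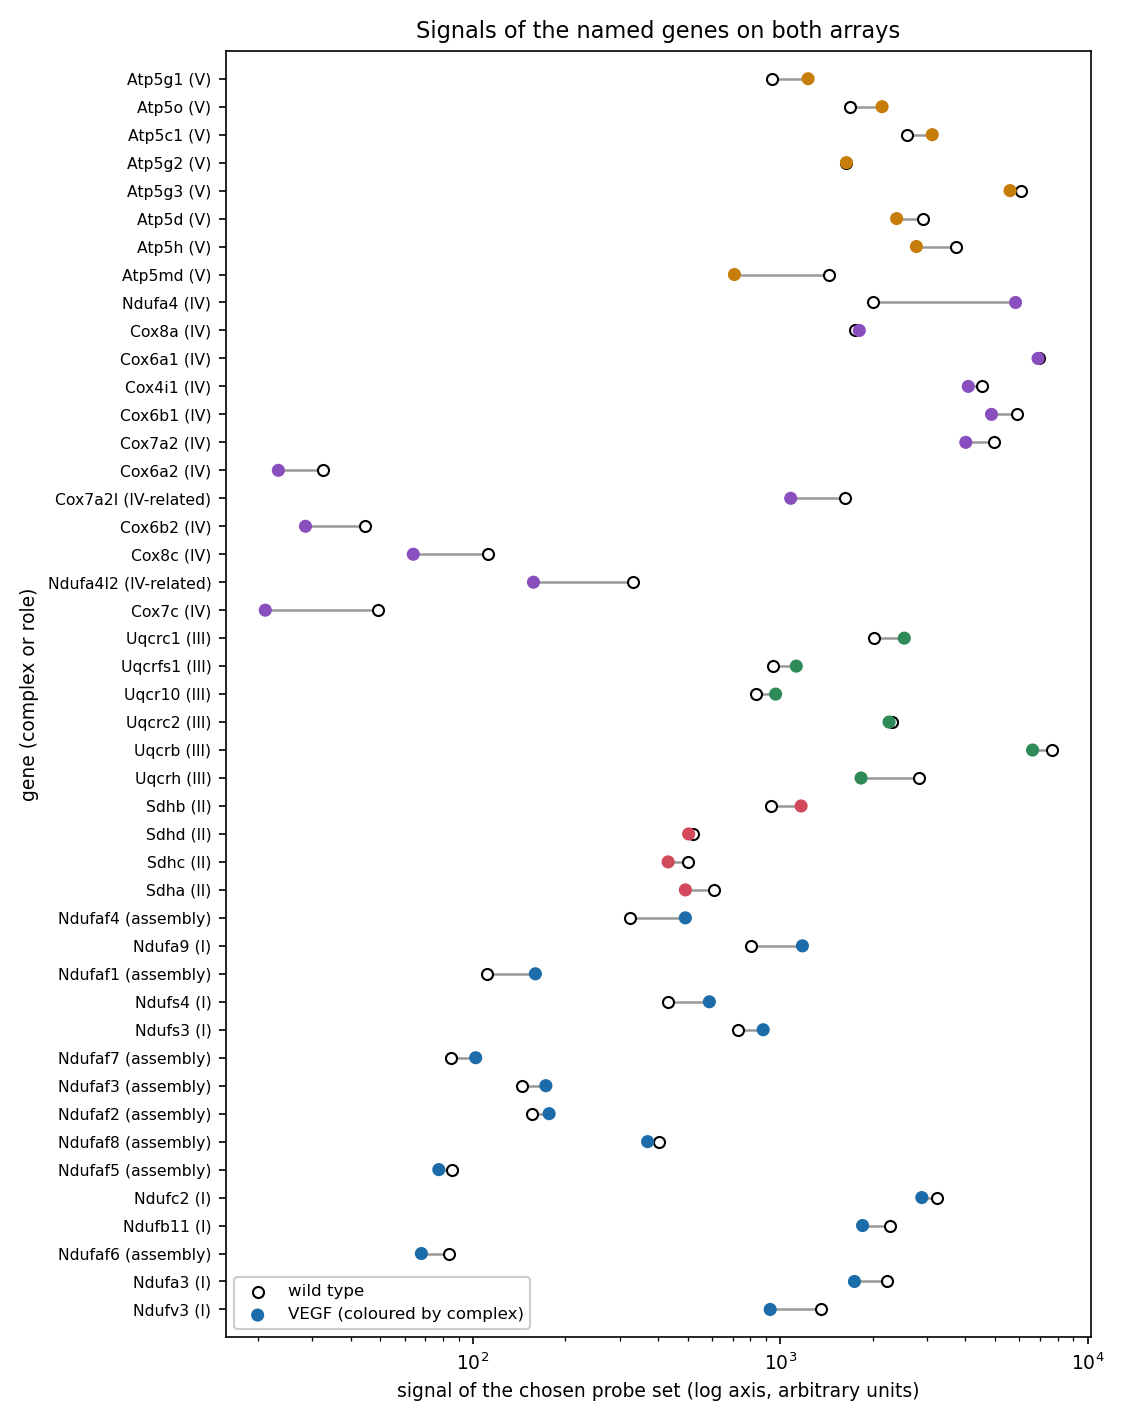
Signal of the chosen probe set (horizontal log axis, arbitrary units) on the wild-type array (open points) and the VEGF array (filled points, coloured by complex) for the 45 named members with a ratio, ordered by complex and ratio. Most pairs nearly touch, while Ndufa4 runs from 2006 to 5833 and Atp5md from 1446 down to 710.

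Complex IV held the widest range. Ndufa4, long counted with complex I and now placed in complex IV, had a signal of 2006 on the wild-type and 5833 on the VEGF array, 2.91-fold higher, and its log2 ratio of 1.54 stayed between 1.52 and 1.65 under the 10 other settings tried for single genes. Ndufa4l2, its hypoxia-induced relative, had 332 and 157, 2.11-fold lower (-1.08). The log2 ratios of this pair were 2.62 apart. Each is read by 1 probe set, and Ndufa4l2 was under 2-fold with the offset of 50 (-0.84).

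The remaining generally expressed complex IV subunits were level or slightly lower. Leaving aside Ndufa4 and Cox7c, a choice made after their values were seen, 7 of 8 were below 0 by their brightest probe sets. The median was -0.20, with a range from -0.34 to 0.05, and of all bright genes 44.5% were below 0. Cox6c had 3980 and 3143 (-0.34; other probe set -0.63), Cox7a2 4973 and 4017 (-0.31; other probe set 0.02) and Cox6b1 5895 and 4871 (-0.28; other probe set -0.16). Cox5a, a subunit on the matrix side, had 5489 and 4625 (-0.25), and its other probe sets gave -0.28 and -0.10. Cox4i1, the general form of the largest nuclear subunit, had 4537 and 4093 (-0.15). Cox5b had 3726 and 3501 (-0.09, other probe sets from -0.16 to 0.29) and Cox6a1 6977 and 6903 (-0.02, other probe set 0.12). Cox8a was the only one above 0, with 1753 and 1809 (0.05, other probe set -0.02). After quantile normalization Cox4i1 was at 0.03 and Cox6a1 at 0.23, so the count below 0 depends on probe set and scaling.

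Cox7c was read by a dim probe set of a type that can bind several transcripts. Its signals were 49.2 and 21.1, 2.33-fold lower (-1.22), and with the offset of 50 the log2 ratio was -0.38. Genes of the lowest signal tertile had a median of -0.35 over all genes, with 66.0% below 0. By this reading, a dim gene was more often lower on the VEGF array than a bright one. The floors of the rule are unequal (19.9 for wild type, 11.3 for VEGF), and their part in the values of dim genes was not tested. Cox7c itself was above both floors. A gene above background on the VEGF array alone counted only above 19.9. With a common floor, the higher genes made up 43.1% of all genes at least 2-fold apart, against 31.2% with unequal floors.

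The tissue forms of complex IV were dim or below background. Cox8c and Cox6b2, known from testis, had 112 and 64.0 (-0.80) and 44.6 and 28.5 (-0.65), and Cox6a2, the heart and skeletal muscle form, had 32.5 and 23.3 (-0.48). These sizes depended on the scaling. After quantile normalization Cox8c was at -0.74, Cox6b2 at -0.35 and Cox6a2 at -0.13. With the offset of 50 they were at -0.44, -0.17 and -0.07. The muscle forms Cox7a1 (3.66 and 7.34) and Cox8b (2.10 and 1.96) and the testis form Cox7b2 (1.32 and 4.84) were not above background on either array. Cox4i2, the lung form that HIF-1 can induce, had 7.65 and 12.5, which is above background on the VEGF array alone and below the wild-type background, so it has no fold. Cox7a2l, which joins complexes III and IV into supercomplexes, was bright, with 1628 and 1082 (-0.59), and its other probe sets gave -0.68 and -0.48.

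In complex V, Atp5md stood apart from the other 16 subunits. Atp5md, a small membrane subunit also known as DAPIT or Usmg5 that supports ATP synthase dimers, had 1446 and 710, 2.04-fold lower (-1.03), on its single probe set. This was just under 2-fold with centred ratios (-0.99) and with the offset (-0.97). The other membrane subunits were all slightly below 0: Atp5l (-0.18), Atp5j2 (-0.16), Atp5k (-0.04) and Atp5mpl (-0.01).

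The catalytic F1 head and the stalk went both ways. The catalytic subunit gene Atp5b had 3466 and 3863 (0.16) and Atp5a1 2035 and 2317 (0.19, other probe sets -0.01 and -0.49). The rotor gene Atp5c1 had 2583 and 3123 (0.27, while its dim second probe set gave -0.32). Atp5d had 2921 and 2393 (-0.29; other probe set -0.03) and Atp5e 1724 and 1431 (-0.27). In the peripheral stalk, Atp5h had 3735 and 2775 (-0.43; other probe set -0.14) and Atp5o 1686 and 2145 (0.35), whose other probe set gave -0.32. None of these was 2-fold apart, and several had probe sets of opposite sign.

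The 3 genes for subunit c, which encode the same rotor ring protein with different import signals, were not alike in their ratios. Atp5g1 had 944 and 1232 (0.39), Atp5g2 1637 and 1643 (0.01) and Atp5g3 6083 and 5597 (-0.12). Atp5g1 had the highest ratio of complex V, at little more than 1 SD of a probe set from 0.

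**Figure D3:**
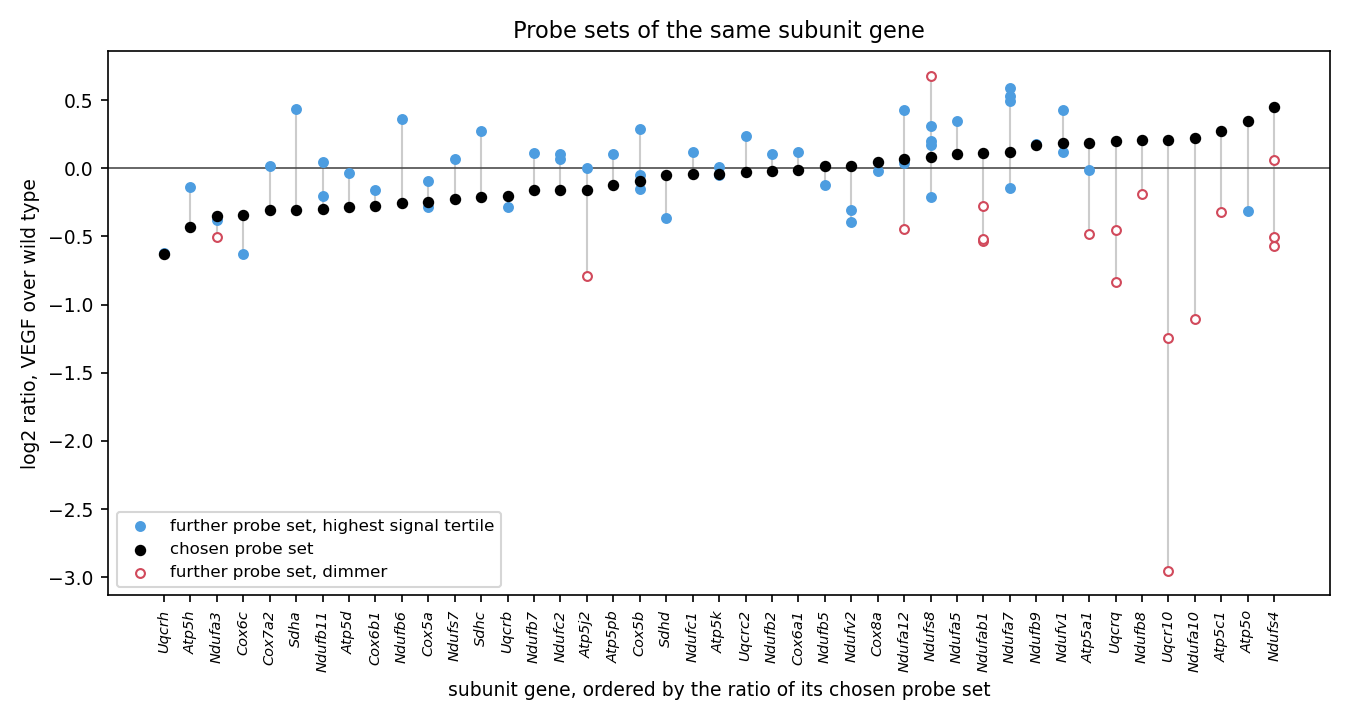
Log2 ratio (VEGF over wild type) of every probe set above background on both arrays, for the 43 subunit genes with at least 2 of them, ordered by the chosen probe set (black); blue points are further bright probe sets and open red points dimmer ones. Bright probe sets scatter to both sides of 0, while the dimmer ones lie mostly below it, down to -2.95 for Uqcr10.

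Probe sets of the same subunit often differed in sign. All probe sets had the same sign for 13 of the 43 subunits with at least 2 above background. For the 36 with at least 2 in the highest tertile it was 14, with a median range of 0.27 between a gene's probe sets. Of 51 further bright probe sets, 23 were below 0 (median 0.04), and of 18 dimmer ones 16 were below 0 (median -0.50), against 62.3% of the dimmer further probe sets of all genes (median -0.19). Subunits whose probe sets kept 1 sign included Uqcrh, Ndufa3, Cox5a, Cox6c and Cox6b1 below 0, and Ndufv1, Ndufa5 and Ndufb9 above it. The probe sets of Cox7a2l, which is not counted among the subunits, were all below 0 too.

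Around the chain, genes of neighbouring steps were read in the same way. Within 0.5 of 0 lay 77.8% of the assembly genes and 76.5% of the biogenesis regulators. For citric acid cycle genes it was 83.3% and for genes of reactive oxygen defence 85.7%, against 74.9% of bright genes. At least 2-fold apart either way were 12.4% of all genes and 6.25% of bright ones. At these shares, counts of 0 in short lists say little. Of 36 measured assembly genes outside the member list, 2 were at least 2-fold higher, Coa7 (46.8 and 126) and Sco2 (73.0 and 171), which serve complex IV, and 1 was lower, Ttc19 of complex III (86.3 and 30.2), whose other 2 probe sets gave 0.08 and 0.14. Their median was 0.10, and Cox17, a copper chaperone of complex IV, had 938 and 1030 (0.13). Of 12 citric acid cycle genes 0 were 2-fold apart, with a median of 0.11, led by the succinyl-CoA ligase genes Suclg1 (0.71) and Suclg2 (0.71). Dlst of the 2-oxoglutarate dehydrogenase complex had 343 and 465 (0.44; other probe sets from -0.60 to 0.18), and the malate dehydrogenase gene Mdh2 3931 and 3886 (-0.02). Of 17 regulators of mitochondrial biogenesis 0 were 2-fold apart, with a median of 0.19; Tfam, which packages and transcribes mitochondrial DNA, had 202 and 300 (0.57; other probe set 0.08), and Ppargc1b, a coactivator of respiratory genes, 135 and 78.8 (-0.78). Polg2, the accessory subunit of the mitochondrial DNA polymerase, had 99.1 and 55.4 (-0.84), and Ssbp1, which binds single-stranded mitochondrial DNA, 1416 and 1617 (0.19; other probe sets -0.72 and 0.35). Of 7 genes of mitochondrial defence against reactive oxygen 0 were 2-fold apart, with a median of 0.05. Among them the peroxiredoxin gene Prdx3 had 216 and 330 (0.61), the superoxide dismutase gene Sod2 586 and 767 (0.39; other probe sets -0.50 and 0.71), Txnrd2 29.0 and 23.7 (-0.29) and Gpx4 1296 and 1268 (-0.03).

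The carriers and electron donors were led by a single gene. Gpd2, the mitochondrial glycerol-3-phosphate dehydrogenase that feeds electrons to ubiquinone beside complex II, had 296 and 1157, 3.90-fold higher, and its other probe sets gave log2 ratios of 1.61 and 2.10. It was the only 1 of 15 genes of this list at least 2-fold apart, against 12.4% of all genes. Cycs, the cytochrome c gene, had 5015 and 5019. Slc25a3, the phosphate carrier of ATP synthesis, had 3175 and 4032 (0.34), and Atpif1, the inhibitor of ATP hydrolysis by complex V, 2333 and 1835 (-0.35). Of the mitochondrially encoded subunits, ND5 of complex I was read, with 8027 and 5087 (-0.66).

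Of 12 measured genes of pyruvate entry 6 were above and 6 below 0, with a median of -0.01. At least 2-fold lower were 2, Pdk1 and Pdk4, against 8.54% of all genes. Pdk1, a kinase that shuts pyruvate dehydrogenase, had 626 and 204 (-1.62, other probe sets -1.31 and -1.29), and its relative Pdk4 45.1 and 21.0 (-1.10). Pdk4 is dim, and of the 4065 genes in the lowest signal tertile 736 were at least 2-fold lower. Pcx, the pyruvate carboxylase gene, had 70.7 and 42.0 (-0.75; other probe sets -0.96 and 0.61). Pdhb, a pyruvate dehydrogenase subunit, had 945 and 926 (-0.03; other probe set 0.62). A list of 6 hypoxia genes of mitochondria holds Ndufa4l2 and Cox4i2 themselves and shares Pdk1 with pyruvate entry. Its 5 measured genes were below 0 and 3 of them at least 2-fold lower, Ndufa4l2, Pdk1 and Bnip3, against 52.9% and 8.54% of all genes. Bnip3, a mitophagy receptor, had 2494 and 813 (-1.62). That list was chosen with these results known, so its count supports nothing.

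Of 12 glycolytic genes 10 were below 0 and 0 were 2-fold apart, with a median of -0.18. Over all genes 52.9% were below 0 and 12.4% at least 2-fold apart. The phosphofructokinase genes Pfkp and Pfkm had 993 and 581 (-0.77; other probe sets of Pfkp -0.31 and -0.12) and 140 and 82.0 (-0.77). Pgk1, the phosphoglycerate kinase gene, had 5555 and 3555 (-0.64; other probe sets -0.25 and -0.04), and Ldha, a lactate dehydrogenase gene, 7584 and 6640 (-0.19).

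**Figure D4:**
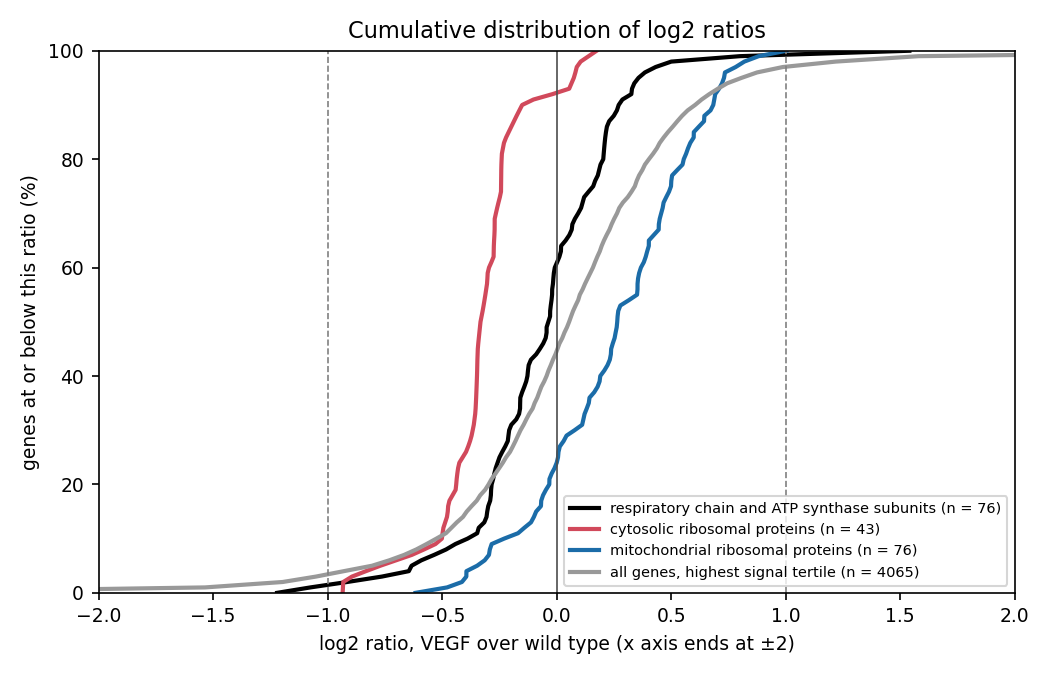
Share of genes (vertical axis, percent) at or below each log2 ratio (VEGF over wild type) for the 76 subunits, the cytosolic and the mitochondrial ribosomal proteins and all bright genes; dashed lines mark 2-fold. The subunit curve crosses 0 between the cytosolic ribosomal curve on its left (median -0.33) and the mitochondrial one on its right (median 0.26).

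Among other abundant complexes, the subunits lay between the 2 kinds of ribosome in the main setting. No other setting is given here for the ribosomal and proteasome lists. Quantile normalization moved the bright subunit Cox6a1 from -0.02 to 0.23, and the part of signal level in this order was not tested. The 43 measured cytosolic ribosomal protein genes had a median of -0.33 with 39 below 0. The 76 mitochondrial ribosomal protein genes had 0.26 with 18 below 0, and the 38 proteasome genes 0.21 with 7 below 0. Below 0 were 52.9% of all genes with a ratio and 44.5% of bright ones. None of these lists had a test against another, since genes are not replicates. Mrpl39 (965 and 1934; log2 ratio of its other probe set 0.79) was the only gene of the 3 lists at least 2-fold apart. The next of the mitochondrial ribosome were Mrps6 (0.84; other probe set 1.43) and Mrpl16 (0.80), while Mrpl51 was at -0.30. In the cytosolic ribosome Rpl27a had 299 and 156 (-0.93), Rps6 958 and 502 (-0.93), Rpl37 1768 and 1025 (-0.79) and Rps29 14892 and 11730 (-0.34). In the proteasome Psmd7 was at 0.79 (other probe set -0.58), Psmb10 at 0.74 and Psma3 at 0.32 (other probe set -0.77), and Psmb11, the thymus form, was above background in wild type alone (21.5 and 5.29).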

How the data were processed

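The deposited values are log2 signals, 1 column per array. Per the submitters' processing notes the authors used MAS5, which summarises each array separately; neither its version nor its scaling target is stated there. After conversion to linear signals, the mean without the outer 2% was 100.04 for each array. Probe sets with 1 gene in the platform annotation (34958 of 45101) were kept. A signal was floored at background, and a ratio against a floor was a bound; no member was one. Complex and role were assigned by hand from textbook knowledge.

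Named genes were, in each complex, the 3 highest and 3 lowest ratios and the brightest member, all members at least 2-fold apart, isoform pairs, complex II and members that are no subunits; of other lists, the 3 largest ratios and the brightest gene. Further genes were named to show a role and were chosen with their values seen. Members and lists were chosen with earlier results of these data known. The RefSeq gene table (GRCm38.p6) held all 91 members, and 74 had a promoter entry. Ratios were computed in Python 3.11.15 (numpy 2.4.6, pandas 2.3.3; lowess of statsmodels 0.14.6 with a span of 0.3), tested on simulated data. With 1 array per genotype no test was run, and the number of arrays limits the precision.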

Additional observations from a re-analysis of the deposited data

How the results depend on the processing

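The floor was replaced by each array's median, by a common value, by none, or by an offset of 50 after adding the difference of the array medians. Arrays were scaled by quantiles or loess, or ratios were centred on their median. Genes were read by the median of their probe sets, or only by those without the suffix _x_at or _s_at. The last settings were a stricter filter (mean signal at least 4 times background), and Ndufa4 counted in complex I. Of 92 list values under these, 85 moved by less than the limits set for them (0.32 for medians, the SD of a single probe set, and 1.5 times for counts). The limit of 0.32 is wider than every median in the main setting, so a median could reach 0 or change sign within it. The values beyond their limits were all counts, and the 85 says little about how steady the medians are. The median of all subunits stayed between -0.04 and 0.01, of complex I between -0.04 and 0.03, of II between -0.20 and 0.05, of III between -0.02 and 0.11 and of V between -0.07 and 0.00. The count at least 2-fold higher was 3 without a floor. The count at least 2-fold lower was 0 with the offset and 1 with quantile or loess normalization, centred ratios, the stricter filter or without _x_at and _s_at probe sets. Of 444 values of 45 named genes, 0 of those at least 2-fold apart in the main setting changed sign, and 6 moved by more than the probe set SD, 4 of them with the median over probe sets: Atp5o (0.02), Ndufs4 (-0.22), Sdha (0.07) and Uqcr10 (-1.24), of which Ndufs4, Sdha and Uqcr10 changed sign and Uqcr10 became at least 2-fold lower. Atp5c1 also changed sign, to -0.32 without _x_at and _s_at probe sets. Sdhc, Uqcrb, Ndufc2, Uqcrc2, Cox4i1, Cox6a1, Atp5g2 and Atp5g3 moved by less than the probe set SD but took both signs too. Sdhc, for example, ran from -0.28 to 0.03 and Atp5g3 from -0.12 to 0.10.

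Chosen after seeing the data, leaving out Cox7c and Ndufa4 gave 0 subunits at least 2-fold higher and 1 lower. Matching the medians by a factor before the offset, also added later, raised bright genes together (highest tertile 0.40, all genes by 0.15): the medians were 0.32 for all subunits, 0.36, 0.24, 0.44, 0.13 and 0.32 for complexes I to V, with 0 at least 2-fold lower and 8 below 0. The planned offset shifted the median of all genes by 0.11. No paired analysis was possible because each genotype had 1 array.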

Other observations

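Several complex I genes are read mainly by probe sets that the annotation gives to more than 1 gene, and these were left out of the counts. Ndufb4, whose own probe set was not above background, shares 2 probe sets with its copies Ndufb4b and Ndufb4c, with signals of 979 and 1092 (log2 ratio 0.16) and of 766 and 981 (0.36), wild type first. A probe set shared by Ndufa11 and Ndufa11b had 759 and 846 (0.16), and one shared by Ndufs6 and Ndufs6b had 1479 and 1395 (-0.08). All of the 10 such probe sets that were above background on both arrays had log2 ratios between -0.26 and 0.36.

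The log2 signals of the 76 subunits correlated between the arrays with r = 0.98, against 0.95 over all 11233 genes above background on both. Genes are not independent, and the points of each comparison share the same 2 arrays.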
